A study of Mus musculus with 30 samples.

Results

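The fetal and adult sarcomere isoforms described here were 10 mouse genes: Myh7 and Myh6, Acta1 and Actc1, Mybpc2 and Mybpc3, Tnni1 and Tnni3, and the atrial light chains Myl4 and Myl7. They were chosen by symbol from the genes that make up the contractile unit of striated muscle, with earlier results of these data known. Shares of all genes called are therefore given beside counts of members as description, and are no test of the set. Every probe set annotated to 1 of these symbols alone was taken. This gave 12 probe sets of the 34945 with a single symbol and 10 of 18193 genes. Myh6 and Myl4 had 2 probe sets each, and the brighter stood for the gene. The light chains of the adult ventricle, Myl3 and Myl2, were added as the adult partners of Myl4 and Myl7. All values are array intensities on a linear scale, and a change is a difference of log2(intensity + 16), which understates changes of weak signals.

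The arrays held RNA from heart, vessel, brain and kidney of male C57BL/6 mice aged 8 to 10 weeks. An implanted osmotic pump delivered angiotensin II, the peptide hormone that constricts vessels and raises blood pressure, at 1500 ng per kg per minute for 1, 3 or 7 days, while day 0 mice received none. There were 12 heart arrays (3 for every one of days 0, 1, 3 and 7), 4 vessel arrays (1 a day), 6 brain arrays (2 for days 0, 3 and 7) and 8 kidney arrays (2 a day). The labels do not say whether day 0 mice carried a pump, which chambers of the heart or which vessels were taken, or which organs shared a mouse, and all 3 heart comparisons with day 0 share the same 3 day 0 arrays.

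A sarcomere contracts when myosin heads of the thick filament pull on the actin of the thin filament, and troponin releases this on calcium. Many of its proteins come from pairs of genes. Before birth the mouse ventricle uses beta myosin heavy chain (Myh7), slow skeletal troponin I (Tnni1) and much skeletal actin (Acta1). After birth alpha myosin heavy chain (Myh6), cardiac troponin I (Tnni3) and cardiac actin (Actc1) prevail. The light chains Myl4 and Myl7 are kept to the atria in the adult, and a return of fetal isoforms is a known feature of the rodent heart under pressure load.

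The proximal promoters of the genes that the results turn on are shown for comparison with their adult partners. Each run is the 250 bases before the annotated start, 5′ to 3′ on the gene's strand, from RefSeq on GRCm38.p6, and capitals mark matches to CATTCC or its reverse complement GGAATG (the MCAT motif), to the CArG box and to TATAAA. Myh7 had 2 annotated starts and the window of the farther upstream one is given, while the window of the other start held no match to any motif searched. The Myh6 and Mybpc2 starts each lie inside the annotated span of their gene.
Myh7, chr14:54994627-54994876, minus strand: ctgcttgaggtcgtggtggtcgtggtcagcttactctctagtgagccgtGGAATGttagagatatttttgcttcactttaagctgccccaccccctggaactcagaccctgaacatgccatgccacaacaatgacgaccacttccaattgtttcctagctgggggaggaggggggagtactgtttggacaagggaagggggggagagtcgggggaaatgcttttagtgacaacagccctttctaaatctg
Myh6, chr14:54966608-54966857, minus strand: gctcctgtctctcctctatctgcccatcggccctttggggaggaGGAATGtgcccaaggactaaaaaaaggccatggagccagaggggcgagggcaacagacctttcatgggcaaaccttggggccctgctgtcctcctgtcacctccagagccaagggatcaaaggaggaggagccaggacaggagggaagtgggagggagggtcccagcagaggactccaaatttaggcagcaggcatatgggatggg
Acta1, chr8:123894776-123895025, minus strand: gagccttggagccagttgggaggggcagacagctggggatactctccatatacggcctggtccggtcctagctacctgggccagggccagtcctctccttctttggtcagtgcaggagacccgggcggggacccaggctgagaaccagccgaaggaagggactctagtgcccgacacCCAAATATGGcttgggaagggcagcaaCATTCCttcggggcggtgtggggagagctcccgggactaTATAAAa
Actc1, chr2:114052876-114053125, minus strand: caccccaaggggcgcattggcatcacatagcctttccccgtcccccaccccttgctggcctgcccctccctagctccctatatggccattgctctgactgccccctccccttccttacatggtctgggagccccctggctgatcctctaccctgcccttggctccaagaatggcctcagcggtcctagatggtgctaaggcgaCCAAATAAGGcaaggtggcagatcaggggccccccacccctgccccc
Mybpc2, chr7:44524670-44524919, minus strand: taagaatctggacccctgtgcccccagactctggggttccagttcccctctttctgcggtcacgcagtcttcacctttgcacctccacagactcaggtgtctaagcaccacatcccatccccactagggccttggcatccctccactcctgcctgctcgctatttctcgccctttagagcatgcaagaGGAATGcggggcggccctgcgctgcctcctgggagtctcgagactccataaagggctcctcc
Myh7 and Myh6 each held 1 MCAT match, on the minus strand relative to the gene, 201 to 196 bases before the start in Myh7 and 206 to 201 before it in Myh6. Acta1 held an MCAT match (46 to 41 bases before the start), a CArG box (73 to 64) and TATAAA (7 to 2). Actc1 held a CArG box (47 to 38) and no MCAT match, and Mybpc2 an MCAT match (62 to 57) and no CArG box. All 10 genes were searched on both strands, except that TATAAA was searched on the gene's own strand only, and were counted where any of a gene's windows matched. MCAT was found in Myh7, Myh6, Acta1, Mybpc2 and Myl7 (5 of 10, against 12.6% of all 32851 windows of this length) and the CArG box in Acta1, Actc1 and Myl7 (3 of 10, against 1.47%). TATAAA was found in Acta1 alone (7.59% of windows) and AGATAA or TTATCT in none (9.99% of windows). No match overlapped another, and a match describes letters only.

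In heart, Myh7, Acta1 and Mybpc2 rose with angiotensin II, while the adult genes Myh6, Actc1, Mybpc3 and Tnni3, and Tnni1, Myl4 and Myl7 with them, did not pass the test against day 0 on any day. The test was limma on all heart arrays, with Benjamini-Hochberg adjustment over the 13960 genes tested in heart and a threshold of 0.05, and all 10 genes passed its filter on weak signals. On day 1, 2 of 10 rose (Myh7 and Acta1) and none fell, where 13.5% of all tested genes were called (4.91% as rises). On day 3, 3 of 10 rose (Myh7, Acta1 and Mybpc2), where 0.086% of genes were called (0.0716% as rises), and on day 7 the same 3 rose, where 0.0501% were called (0.043% as rises). By probe set, 2, 3 and 3 of 12 rose on days 1, 3 and 7, where 11.5%, 0.0532% and 0.0369% of all probe sets tested were called. The median change of the 10 genes was small, at 0.10, 0.03 and 0.11 on days 1, 3 and 7, beside medians of -0.02, -0.02 and -0.02 over all tested genes. By the F test over the 3 days, Myh7, Acta1 and Mybpc2 were the members called, where 6.59% of genes were. These are bulk RNA values, so more cells that express a gene and more of its RNA per cell cannot be told apart.

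**Figure D1:**
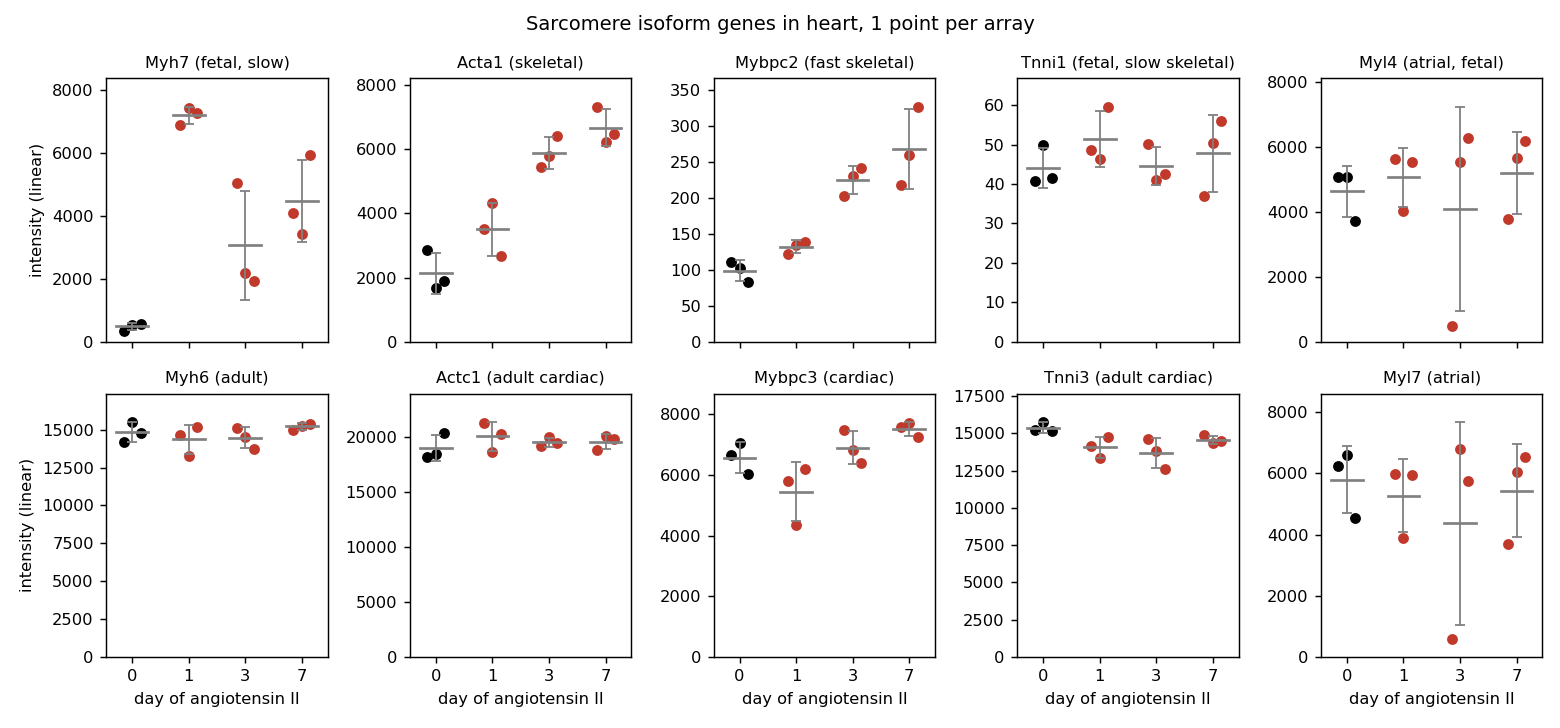
Intensity (linear axis from 0) of the 10 genes in heart by day of angiotensin II, with 1 point per array, black at day 0 and red at later days, and bars at the mean ± SD of 3 arrays. Myh7 stands above its day 0 arrays on each later day and is highest on day 1, Acta1 and Mybpc2 are highest on day 7, and Myl4 and Myl7 share a single low array on day 3.

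Myh7 (chr14:54970684-54994626) encodes the slow beta myosin heavy chain. Its intensity was 353, 540 and 578 in the 3 hearts of day 0, then 6897, 7441 and 7270 on day 1, 5066, 2193 and 1940 on day 3, and 4094, 3424 and 5933 on day 7. All 9 treated hearts lay above all day 0 hearts. The day 1 arrays were close together and above every later array, and on day 3 replicate 1 stood well above the other two. The change from day 0 was 3.86 ± 0.31 on day 1 (SE, n = 3 against 3; 14.6-fold, adjusted p = 0.000107 in limma), 2.50 ± 0.31 on day 3 (5.65-fold, adjusted p = 0.0104) and 3.14 ± 0.31 on day 7 (8.84-fold, adjusted p = 0.00112). From day 1 to day 3 Myh7 fell by 1.37 ± 0.31 (adjusted p = 0.0301), and without day 3 replicate 1 it fell by 1.80 (adjusted p = 0.00103). The day 7 value differed from day 1 by -0.72 ± 0.31 (adjusted p = 0.192) and from day 3 by 0.65 ± 0.31 (adjusted p = 0.711). The day 3 rise did not pass without day 0 replicate 1 or 2 (adjusted p = 0.0582 and 0.0584) or with trended and robust variances in limma (adjusted p = 0.0562). The fall to day 3 was lost in 8 of 21 refits, those without day 1 replicate 1 or 2 or day 3 replicate 2 or 3 among them (adjusted p of up to 0.161 over the 21).

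Myh6 (chr14:54941921-54968017), the fast alpha myosin heavy chain of the adult mouse ventricle, lies beside Myh7 on the same strand. Its intensity was 14177, 15525 and 14793 on day 0, 14649, 13289 and 15151 on day 1, 15140, 14522 and 13729 on day 3, and 14971, 15264 and 15398 on day 7. These ranges overlapped on every day, and the changes were -0.05 ± 0.09, -0.04 ± 0.09 and 0.04 ± 0.09 on days 1, 3 and 7 (adjusted p = 0.782, 0.911 and 0.941). A weaker Myh6 probe set read 230 to 546 on day 1, 335 to 452 on day 3 and 378 to 471 on day 7, against 440 to 575 on day 0. It gave changes of -0.42 ± 0.23, -0.36 ± 0.23 and -0.17 ± 0.23, with adjusted p of 0.277, 0.598 and 0.881 over all single-symbol probe sets. A pair of probe sets annotated to both Myh7 and Myh6 was left out by the rule, and the brighter read 10160 to 12090 over the 12 hearts. The weaker of the pair read 847 to 1082 on day 0, 541 to 1032 on day 1, 711 to 859 on day 3 and 752 to 888 on day 7, and was not tested. Myh6, Actc1, Tnni3, Myl3 and Myl2 lay above the 99.9th percentile of every heart array, near the top of the scale, where a true change may read as a smaller one, and this was not tested.

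Acta1 (chr8:123891758-123894775) encodes skeletal alpha actin, the main actin of skeletal muscle fibres. Intensities were 2865, 1667 and 1888 on day 0, 3522, 4325 and 2662 on day 1, 5437, 5779 and 6417 on day 3, and 7326, 6227 and 6472 on day 7. Day 1 overlapped day 0, since day 1 replicate 3 lay below day 0 replicate 1, while every array of days 3 and 7 lay above all of days 0 and 1. Acta1 rose by 0.72 ± 0.20 on day 1 (1.65-fold, adjusted p = 0.0312), 1.49 ± 0.20 on day 3 (2.80-fold, adjusted p = 0.0121) and 1.67 ± 0.20 on day 7 (3.18-fold, adjusted p = 0.00287). Set against day 1 it rose by 0.77 ± 0.20 on day 3 (adjusted p = 0.0454) and by 0.95 ± 0.20 on day 7 (adjusted p = 0.0221). The day 1 rise was lost in 5 of 21 refits, among them those without day 0 replicate 2 or 3 or day 1 replicate 1 or 2 (adjusted p = 0.0900 to 0.133). The rise between days 1 and 3 was lost in 17 of 21 refits, and that between days 1 and 7 in 5, without day 1 replicate 1 or any day 7 replicate among them (adjusted p of up to 0.0947).

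Actc1 (chr2:114047282-114052875), the cardiac alpha actin, read 18182, 18424 and 20317 on day 0, 21294, 18676 and 20239 on day 1, 19190, 19969 and 19419 on day 3, and 18836, 20073 and 19828 on day 7. The groups overlapped throughout, and changes were 0.08 ± 0.09, 0.04 ± 0.09 and 0.05 ± 0.09 (adjusted p = 0.606, 0.895 and 0.920).

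Mybpc2 (chr7:44501699-44524715) encodes the fast skeletal myosin-binding protein C, a protein of the thick filament. It was a weak signal, with intensities of 111, 102 and 83.0 on day 0, 122, 135 and 139 on day 1, 203, 230 and 242 on day 3, and 217, 260 and 327 on day 7. Each treated heart lay above all 3 day 0 hearts, and every array of days 3 and 7 lay above every day 1 array. Mybpc2 differed from day 0 by 0.37 ± 0.14 on day 1, which did not pass (adjusted p = 0.0940), and rose by 1.07 ± 0.14 on day 3 (2.11-fold, adjusted p = 0.0121) and 1.30 ± 0.14 on day 7 (2.46-fold, adjusted p = 0.00127). It rose further beyond day 1, by 0.70 ± 0.14 at day 3 (adjusted p = 0.0200) and 0.92 ± 0.14 at day 7 (adjusted p = 0.00766). The day 3 calls of both Acta1 and Mybpc2 were lost without day 0 replicate 2 or 3 or day 3 replicate 2 or 3 (adjusted p of up to 0.0948 for Acta1 and 0.0802 for Mybpc2). The Mybpc2 rise beyond day 1 was lost at day 3 without day 1 replicate 1 or 2 or day 3 replicate 2 or 3, and at day 7 without day 1 replicate 1 (adjusted p = 0.0534).

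Mybpc3 (chr2:91118114-91136516), the cardiac myosin-binding protein C, read 6652, 7065 and 6020 on day 0, 5790, 4348 and 6210 on day 1, 7491, 6824 and 6412 on day 3, and 7593, 7716 and 7250 on day 7. Day 1 replicate 2 was the lowest, and the day 7 hearts lay just above all day 0 hearts. The changes of -0.28 ± 0.13, 0.07 ± 0.13 and 0.19 ± 0.13 did not pass (adjusted p = 0.158, 0.878 and 0.684). Between days 7 and 1, Mybpc3 rose by 0.48 ± 0.13 (adjusted p = 0.0491), a call lost in 14 of 21 refits.

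Tnni1 (chr1:135783033-135810989), the slow skeletal troponin I of the fetal heart, was a weak signal. It read 40.9, 49.8 and 41.5 on day 0, 48.5, 46.2 and 59.6 on day 1, 50.0, 41.1 and 42.6 on day 3, and 37.0, 50.3 and 55.9 on day 7, where the 40th percentile used as the filter lay at 24.6 to 26.6 in hearts. The groups overlapped, with changes of 0.17 ± 0.13, 0.01 ± 0.13 and 0.08 ± 0.13 (adjusted p = 0.436, 0.981 and 0.908). Tnni3 (chr7:4518305-4522718), the cardiac troponin I that replaces it, read 15239, 15791 and 15176 on day 0, 14164, 13327 and 14740 on day 1, 14602, 13793 and 12629 on day 3, and 14881, 14384 and 14488 on day 7. All 9 treated hearts lay below the 3 day 0 hearts, by small amounts of -0.13 ± 0.08, -0.17 ± 0.08 and -0.08 ± 0.08 that did not pass (adjusted p = 0.350, 0.444 and 0.832). Over all 10 genes, groups did not overlap for Myh7, Mybpc2 and Tnni3 on day 1 (29.9% of all tested genes), for these and Acta1 on day 3 (17.9%), and for these and Mybpc3 on day 7 (21.3%).

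**Figure D2:**
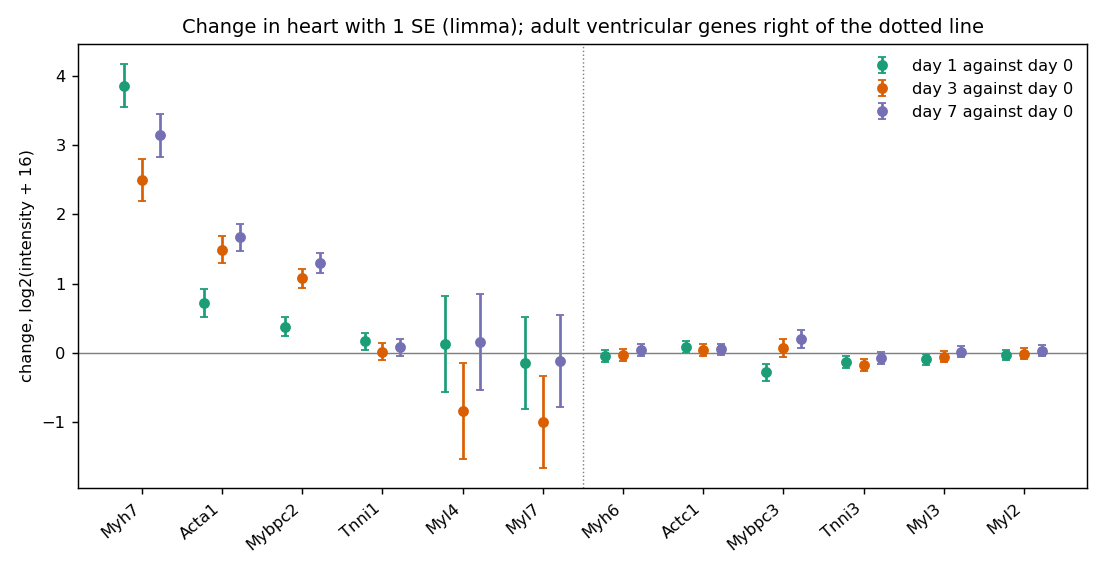
Change in heart against day 0 on the log2(intensity + 16) scale for the 10 genes with Myl3 and Myl2, on days 1, 3 and 7, with bars of 1 SE from limma (n = 3 against 3). Myh7 is largest on day 1 (3.86), Acta1 and Mybpc2 are largest on day 7 (1.67 and 1.30), and the genes right of the dotted line stay between -0.28 and 0.19.

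The order of the days differed among the genes that rose. Myh7 was highest on day 1 and lower on day 3, though its difference between days 7 and 1 did not pass, while Acta1 and Mybpc2 were each higher on days 3 and 7 than on day 1. These calls between treated days passed with all heart arrays in the fit, but with only the groups compared none of them did, and the refits without single arrays lost many of them, as given for each gene above. Against day 1, Myh7 was the member that fell by day 3 and Acta1 and Mybpc2 the members that rose, where 4.34% of all tested genes were called (2.86% as rises and 1.48% as falls). Acta1, Mybpc2 and Mybpc3 rose between days 1 and 7, where 4.76% of genes were called (2.69% as rises). Between days 7 and 3 no member passed in limma and none had an unadjusted p under 0.05, though all 10 differences were positive, with a median of 0.15 beside -0.01 over all genes, and 0 of 13960 genes were called (0%). Over the 12 hearts, Acta1 and Mybpc2 had a Pearson r of 0.91, Myh7 and Acta1 0.57, and Myh7 and Mybpc2 0.50. With each day's mean taken off, the same pairs had r of 0.12, -0.41 and -0.18, so the pooled values describe differences between days and not between hearts of 1 day.

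The difference between each isoform and its adult partner was then taken within each array, which removes what scales a whole array. Only changes of this difference are given, since probe sets have no common scale. The partners of Myh7, Acta1 and Tnni1 and both ventricular light chains were near the top of the scale, with changes of -0.17 to 0.08, so a pair largely repeats the change of the isoform itself and is no separate evidence of it. Myh7 minus Myh6 was higher in treated hearts (days 1, 3 and 7 together, n = 9) than in day 0 hearts (n = 3) by 3.18, with an exact two-sided permutation p of 0.0045, the smallest that 220 arrangements can give (0.0136 adjusted over the 6 pairs compared). By day it stood 3.91 ± 0.14, 2.53 ± 0.69 and 3.11 ± 0.39 above the day 0 mean on days 1, 3 and 7 (SD, n = 3). Acta1 minus Actc1 was higher by 1.24 (exact permutation p = 0.0091, adjusted 0.0182), with 0.64 ± 0.41, 1.44 ± 0.12 and 1.62 ± 0.17 on the 3 days. Mybpc2 minus Mybpc3 was higher by 0.92 (exact permutation p = 0.0045, adjusted 0.0136), with 0.66 ± 0.29, 1.00 ± 0.23 and 1.10 ± 0.32.

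The other pairs did not pass. Tnni1 minus Tnni3 was higher by 0.21 (exact permutation p = 0.0545, adjusted 0.0818), Myl4 minus Myl3 differed by -0.14 (p = 0.932, exact permutation) and Myl7 minus Myl2 by -0.41 (p = 0.545, exact permutation). Without day 0 replicate 2 or 3, 55 arrangements are left, with a smallest exact permutation p of 0.0182, and the adjusted values of the 3 passing pairs were 0.0545 for Myh7 and Mybpc2 and 0.0727 for Acta1. Within a single day, 3 arrays against 3 cannot give a p under 0.1, so no test was made by day.

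**Figure D3:**
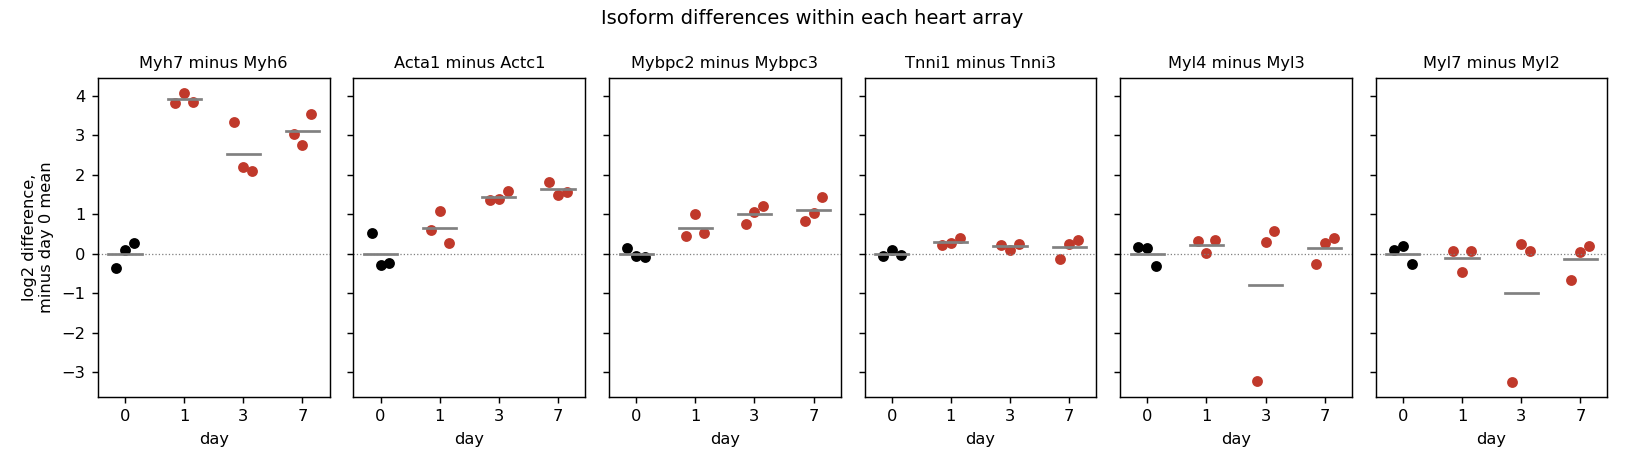
Log2 difference between each isoform and its adult partner in each heart array, less the day 0 mean of that difference, with 1 point per array and a bar at the mean of each day. All 9 treated arrays of Myh7 minus Myh6 lie between 2.09 and 4.07, those of Acta1 minus Actc1 reach 1.82, and a single day 3 array falls below -3 for both atrial light chains.

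The atrial light chains were split by 1 heart. Myl4 (chr11:104546017-104587215), the essential light chain of atrial and embryonic muscle, read 5076, 5088 and 3716 on day 0, 5617, 4025 and 5535 on day 1, 470, 5520 and 6268 on day 3, and 3768, 5660 and 6174 on day 7. Myl7 (chr11:5896637-5898782), the atrial regulatory light chain, read 6238, 6593 and 4553 on day 0, 5993, 3890 and 5942 on day 1, 588, 6790 and 5741 on day 3, and 3703, 6044 and 6553 on day 7. Day 3 replicate 1 was far below every other heart for both genes, and the other 11 hearts overlapped across days. Changes on days 1, 3 and 7 were 0.13 ± 0.70, -0.84 ± 0.70 and 0.15 ± 0.70 for Myl4 (adjusted p = 0.939, 0.692 and 0.973) and -0.14 ± 0.67, -0.999 ± 0.67 and -0.12 ± 0.67 for Myl7 (adjusted p = 0.928, 0.601 and 0.979). Without day 3 replicate 1 the day 3 changes were 0.36 for Myl4 and 0.13 for Myl7. A weak second Myl4 probe set read 57.2 to 92.8 over the 12 hearts and 80.5 in that array.

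Other atrial genes were low in the same heart. Sarcolipin, Sln, which inhibits the calcium pump, read 144 there and 1320 to 4157 in the other hearts, and Mybphl, a myosin-binding protein H-like gene of the atria, 48.2 there and 183 to 490 elsewhere. Nppa, the atrial natriuretic peptide gene, read 10399 there and 9476 to 15771 in the other 11. The 9 of 11 listed atrial markers on the array summed to 12363 in day 3 replicate 1 and to 20942 to 34498 in the other hearts. This sum holds Myl4, Myl7, Sln, Mybphl and Nppa themselves, so it largely repeats their values and is no separate evidence. The 12 cardiomyocyte markers summed to 147541 in that array and 128312 to 149154 elsewhere. The same array held the highest Myh7 of day 3, at 5066 against 2193 and 1940. How much atrial tissue each piece of heart held is not stated in the labels, and its part in the Myh7 values was not tested. Without that array Myh7, Acta1 and Mybpc2 still passed on day 3, with changes of 2.07, 1.54 and 1.14, while 1.96% of all genes were called, against 0.086% with it.

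**Figure D4:**
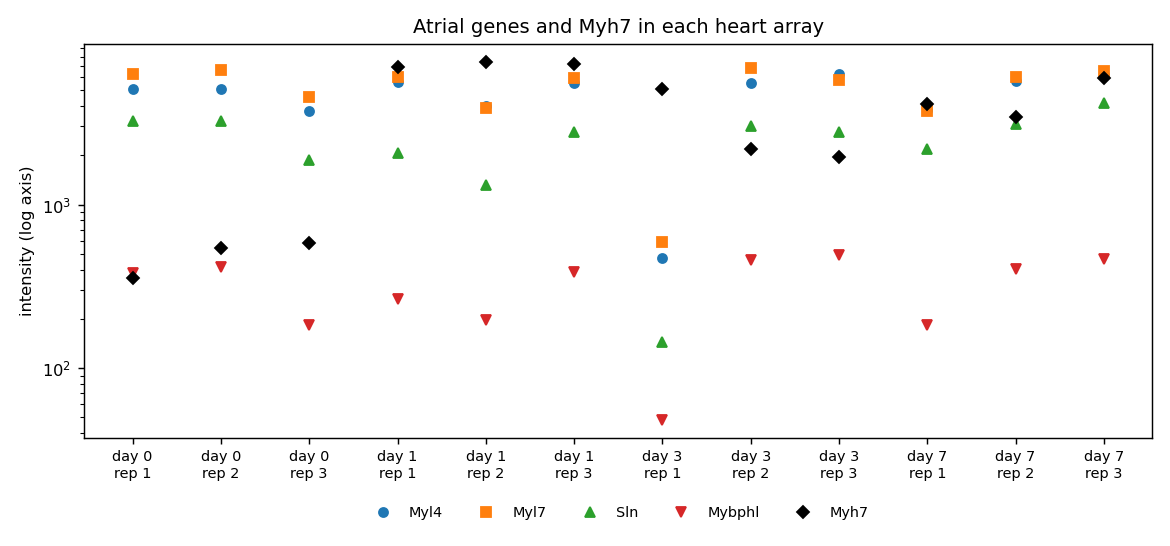
Intensity (log axis) of Myl4, Myl7, Sln, Mybphl and Myh7 in each of the 12 heart arrays, 1 symbol per gene. The 4 atrial genes are lowest in day 3 replicate 1 (470, 588, 144 and 48.2), where Myh7 reads 5066.

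Summed levels of markers of other cells are given by day, and the sums were not tested. Matrix genes of fibroblasts (7 of 7 on the array) summed to 13189 to 19729 on day 0, 12890 to 13768 on day 1, 20918 to 35664 on day 3 and 22321 to 25382 on day 7, high on the days when Acta1 and Mybpc2 were high. Against day 0 in limma, 1 of the 7 fell on day 1, 1 rose on day 3 and none passed on day 7. On these days 2, 5 and 4 of them had an unadjusted p under 0.05. Neutrophil genes (7 on the array) summed to 274 to 1293 on day 0, 1506 to 7356 on day 1, 326 to 1457 on day 3 and 382 to 1381 on day 7. Of these 7 genes, 5 rose on day 1 against day 0 and none passed on days 3 and 7 in limma. Over all tested genes, 13.5%, 0.086% and 0.0501% were called on days 1, 3 and 7. The day 1 hearts, replicates 1 to 3, had neutrophil sums of 5021, 7356 and 1506, while Myh7 stood within 6897 to 7441 in all of them. Macrophage genes (8 of 8 on the array) summed to 8636 to 11346 on day 0, 10855 to 14058 on day 1, 11298 to 16838 on day 3 and 10140 to 15269 on day 7, and all 8 had positive changes on each day (medians 0.20, 0.43 and 0.37), of which 2 passed on day 1 and none on days 3 and 7 in limma (5 and 2 with an unadjusted p under 0.05). The part of these cells in the rises was not tested.

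Skeletal muscle fibre genes, 15 on the array and 9 above the filter in heart, summed to 2200 to 3267 on day 0, 3566 to 3747 on day 1, 2905 to 6778 on day 3 and 3904 to 5307 on day 7. Most of this was Myl1, a light chain of fast skeletal and embryonic muscle, with 1415 to 2337 on day 0, 2586 to 2836 on day 1, 1991 to 5826 on day 3 and 3031 to 4464 on day 7. Its changes of 0.63 ± 0.30, 0.95 ± 0.30 and 1.11 ± 0.30 did not pass (adjusted p = 0.193, 0.244 and 0.389). Of the 9 tested, 7 had positive changes on day 1, 7 on day 3 and 4 on day 7 (medians 0.16, 0.12 and -0.04), and none passed in limma, where 2, 2 and 1 had an unadjusted p under 0.05. Casq1, the calcium-binding protein of the fast fibre's calcium store, changed by 0.33, 0.77 and 0.25 (adjusted p = 0.142, 0.0641 and 0.629), and Tnnt3, fast troponin T, by 0.16, 0.39 and 0.42. The 6 below the filter were the adult fibre myosins Myh1, Myh2 and Myh4 with Actn3, Neb and Mybpc1, at 6.66 to 29.5 over the 12 hearts, and no marker of the list was at 0. The part of skeletal muscle RNA in the Acta1 and Mybpc2 values was not tested.

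Of 40 other sarcomere genes listed, 38 were on the array and 31 tested in heart. On day 1, 1 rose and 3 fell, a share near the 13.5% of all tested genes called that day, with a median change of -0.004 beside -0.02 over all genes. Tpm3, a tropomyosin of slow muscle and non-muscle cells, read 1580, 1698 and 994 on day 1, against 895, 761 and 961 on day 0 (0.67 ± 0.20, adjusted p = 0.0420), and its other 4 probe sets gave 0.31 to 0.79. Mylk4, a myosin light chain kinase family gene, read 477, 366 and 1279 on day 1, against 1299, 1543 and 1579 on day 0 (-1.25 ± 0.32, adjusted p = 0.0247). Tmod4, a skeletal tropomodulin that caps thin filaments, fell by 0.90 ± 0.21 (adjusted p = 0.0156), and Mylk3, the cardiac myosin light chain kinase, by 0.53 ± 0.16 (adjusted p = 0.0408).

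In these 4 genes, day 1 replicate 3 was the closest of the day 1 hearts to the day 0 values. None of the 31 passed on day 3 or day 7 in limma, where 4 and 6 had an unadjusted p under 0.05. Between days 7 and 1, Lmod2, a leiomodin that lengthens thin filaments, was the gene that rose, by 0.45 ± 0.12 (adjusted p = 0.0487), 1 of 31 where 4.76% of all genes were called, and is named here after its value was seen. The ventricular light chains Myl2 and Myl3 lay between 19546 and 21529 and between 16886 and 19802 over the 12 hearts, and their changes ran from -0.10 to 0.03.

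By a Pearson correlation of log2 values over the 12 hearts, the tested genes most like Myh7 were Camta1 (0.94), Ankrd1 (0.92), Fos (0.92), Enc1 (0.90) and Eif4ebp1 (0.90). Those most like Acta1 were Lcorl (0.94), Pmp22, Sdk2, Tnks and Col8a1 (each 0.88), and those most like Mybpc2 were Gm6958 (0.90), Fibin (0.90), Haghl (0.89), Scai (0.89) and Cilp (0.86). For Myl7 they were Sln (0.98), Mybphl (0.93), Stk26 (0.92), Pacc1 (0.91) and Ap5m1 (0.89). Among the members, Myl7 had an r of 0.99 with Myl4, and Acta1 and Mybpc2 had an r of 0.91 with each other. All of these describe 12 arrays in 4 treatment days. Without day 3 replicate 1, a setting chosen after seeing the data, Myl7 had an r of 0.85 with Myl4, 0.80 with Sln and 0.88 with Mybphl, but 0.56 with Stk26, 0.65 with Pacc1 and 0.49 with Ap5m1 (11 hearts).

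Outside the heart, no member passed the test. In kidney, where Myh6 and Tnni3 were below the filter, none of the other 8 passed on days 1, 3 or 7 in limma, while 1, 2 and 2 had an unadjusted p under 0.05 and 0.502%, 0% and 0% of all tested genes were called. The highest kidney reading of any member was 76.4, for Mybpc3. In brain, where Myh6 and Myl7 were below the filter, none of 8 passed on day 3 or day 7 (2 and 0 with an unadjusted p under 0.05), and 0% of genes were called on both days. Acta1 read 97.4 to 156, Myh7 88.8 to 309, Myl4 32.1 to 182 and Mybpc3 39.8 to 189 over the 6 brain arrays.

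The response of heart was set against that of kidney and of brain in a joint fit of 26 arrays. Mybpc2 read near the filter threshold in both other organs (20.6 to 27.2 in kidney and 18.9 to 25.4 in brain). Its differences therefore largely repeat its heart change. Against kidney, 1 member differed on day 1 (Myh7, where 3.6% of genes were called), 1 on day 3 (Mybpc2, 0.0614%) and 2 on day 7 (Acta1 and Mybpc2, 0.0273%). Of the 26 refits that each left out 1 array, 13 lost Mybpc2 on day 3, 19 lost Acta1 on day 7 and 3 lost Mybpc2 on day 7. With the replicate number as a block, or with 1 added before the log, no member differed from kidney on day 3 and Mybpc2 alone did on day 7. Against brain, Acta1 and Mybpc2 differed on day 3 (0.829% of genes) and on day 7 (0.368%), and 5 of 26 refits lost Acta1 and 2 lost Mybpc2 on day 3, and none lost either on day 7. Myh7 rose by 3.86 in heart on day 1, and its kidney arrays read 52.1 and 28.7 on day 1, against 34.1 and 27.1 on day 0. On the later days the Myh7 difference between heart and the other organs was 1.80 to 3.14 and did not pass (adjusted p = 0.0659 to 0.166).

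**Figure D5:**
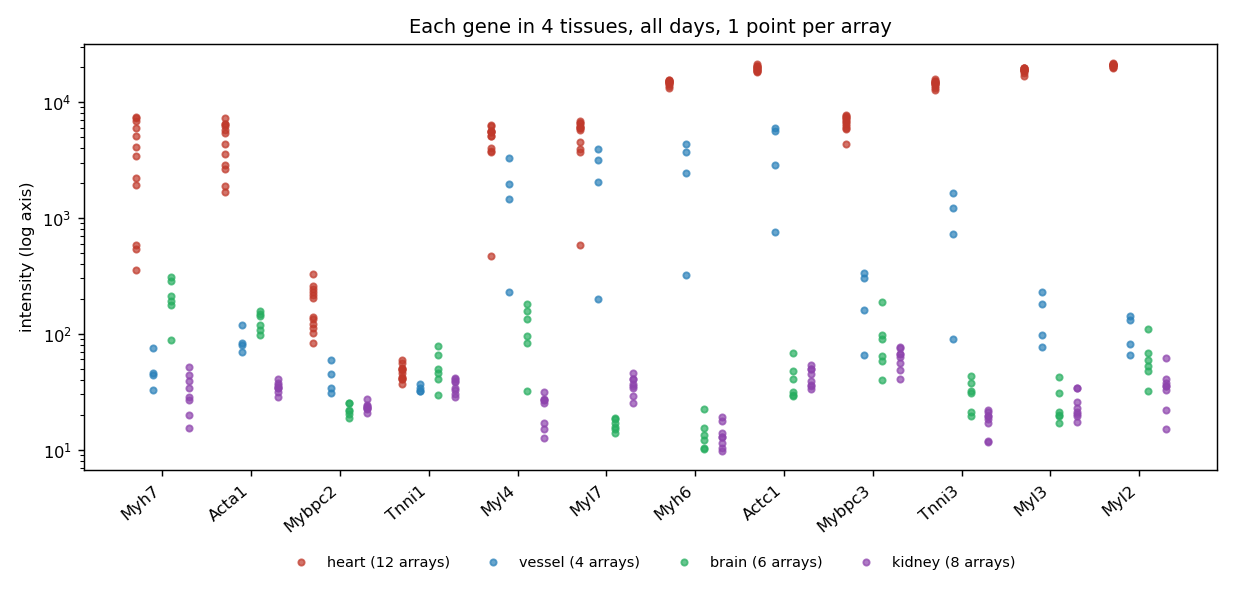
Intensity (log axis) of the 10 genes with Myl3 and Myl2 in heart (12 arrays), vessel (4), brain (6) and kidney (8), all days together, with 1 point per array. Heart is the highest tissue for most genes, and in vessel Myl4 and Myl7 reach 3293 and 3930 while Myl3 and Myl2 reach 229 and 142.

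Ordered by level, each gene other than Tnni1 had its highest group in heart. For all but Tnni1, Myl4 and Myl7, every heart array lay above every array of the other tissues. The lowest heart values of Myl4 and Myl7 (470 and 588) lay below their highest vessel values (3293 and 3930). The lowest heart value exceeded the highest other value 13.1-fold for Mybpc3, 10.7-fold for Acta1, 7.74-fold for Tnni3, 3.05-fold for Actc1, 3.04-fold for Myh6, 1.39-fold for Mybpc2 and 1.14-fold for Myh7. For Myh7 the order in heart was day 1, day 7, day 3 and day 0, with overlap between days 7 and 3, and below these came brain at 88.8 to 309. For Acta1 and Mybpc2 it was day 7, day 3, day 1 and day 0, with overlap between days 7 and 3, and for Acta1 between days 1 and 0 too. Tnni1 had no clear order, with 37.0 to 59.6 in heart, 29.7 to 78.9 in brain, 28.2 to 41.7 in kidney and 31.8 to 37.0 in vessel.

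Vessel arrays held signal of the atrial light chains and of Myh6 and Actc1, and with 1 array a day there is no test. On days 0, 1, 3 and 7, Myl7 read 3930, 2024, 200 and 3146, Myl4 3293, 1459, 229 and 1977, and Myh6 4366, 2415, 324 and 3712. Actc1 read 5962, 2834, 754 and 5645, and Tnni3 1631, 729, 90.0 and 1224. The day 3 array was the lowest for each of these genes, and Sln followed them with 1928, 975, 95.3 and 1765. On days 0, 1, 3 and 7 the 12 cardiomyocyte markers summed to 22137, 18961, 6789 and 15734 in vessel. Fabp3 was a large part of this sum, at 6637, 10258, 3796 and 2188. Tnnt2 of the same list read 2693, 2070, 351 and 3599, so the sum does not describe each marker. Neuron markers (6 on the array) summed to 113, 131, 1577 and 212, so the day 3 array also differed in some markers of other tissue. Snap25 (658), Syt1 (688) and Tubb3 (144) carried the day 3 sum. Rbfox3 (50.8), Slc17a7 (29.9) and Gad1 (5.53) stayed near their levels of the other days. The part of tissue make-up in these readings was not tested. The ventricular light chain Myl2 read only 65.1 to 142 and Myl3 76.7 to 229, and Myh7 32.9 to 76.1. The day 0 heart mean was 1.40 times the day 0 vessel value for Myl4 and 1.47 times for Myl7, but 107 times for Myl3 and 319 times for Myl2. Acta1, the actin that rose in heart, read 82.5, 69.9, 80.6 and 119 in vessel on days 0, 1, 3 and 7.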

How the data were processed

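RNA of 30 mouse tissue samples was measured on Affymetrix arrays of 45101 probe sets. Per the submitters' processing notes, the authors computed the deposited intensity values in Affymetrix Expression Console, whose algorithm and version were not given in the sources used here. Intensities were on a linear scale from 3.18 to 22424, with array medians of 35.2 to 37.8, so no further normalization was applied. The number of arrays limits the precision, and the labels call the replicates biological without naming animals, so p-values measure the spread between these samples.

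Probe sets with 1 gene symbol (34945, against 932 with several and 9160 with none) were used, and a gene took its probe set of highest mean. Values were tested as log2(intensity + 16). A gene was tested if it exceeded the 40th percentile of an array in 3 arrays (heart) or 2 (kidney and brain). Genes were fitted in limma 3.58.1 under R 4.3.3, a fit per tissue, with Benjamini-Hochberg adjustment over all genes tested and a threshold of 0.05. Differences between tissues used a joint fit of 26 arrays. Isoform pairs used exact permutation tests over arrays. The scripts were tested on simulated data. Tables, promoters and figures used Python 3.11.15, pandas 2.3.3, numpy 2.4.6 and matplotlib 3.10.9.

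The members and lists were chosen with earlier results of these data known. All 10 members are named, with Myl2, Myl3 and up to 4 other sarcomere genes past the threshold in each comparison of heart with day 0. For likeness, the 5 genes of highest correlation outside the members are named. Alternatives were no filter, a second quantile normalization, the mean or each other probe set of a gene, trended and robust variances, 1 or 64 added before the log, the replicate number as a block, only the groups compared, the joint fit and each array left out. Same-numbered heart arrays did not deviate together (2 of 18 correlations over 0.1).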

Additional observations from a re-analysis of the deposited data

Results flagged for a closer look

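For 3 genes the response in heart differed, by the interaction term of the joint limma fit adjusted over all genes, from that in another organ. Signals outside heart were weak. Mybpc2 read 20.6 to 27.2 in kidney and 18.9 to 25.4 in brain, where the filter threshold lay at 22.8 to 26.6 over all arrays. In kidney, Myh7 read 15.4 to 52.1 and Acta1 28.4 to 40.8. These differences therefore largely repeat the heart changes. On day 1, Myh7 changed by 3.86 in heart and 0.25 in kidney, a difference of 3.615 ± 0.57 (SE, adjusted p = 0.00242), which passed in all 26 refits that left out an array. Mybpc2 differed between heart and kidney by 1.083 on day 3 (adjusted p = 0.0359) and 1.275 on day 7 (adjusted p = 0.0123), and Acta1 by 1.788 on day 7 (adjusted p = 0.0409). These calls were less stable. The day 3 call of Mybpc2 was lost in 13 of 26 refits: without replicate 1 or 2 of brain day 3, brain day 7 or kidney day 0, heart day 0 replicate 2 or 3, heart day 1 replicate 1, heart day 3 replicate 2 or 3, heart day 7 replicate 2 or kidney day 3 replicate 2. The day 7 call of Acta1 was lost in 19 and that of Mybpc2 in 3 (kidney day 0 replicate 1 or 2 and kidney day 7 replicate 1). With the replicate number as a block, the day 3 call and the day 7 call of Acta1 were lost. Between heart and brain, Acta1 differed by 1.485 on day 3 (adjusted p = 0.0250) and 1.773 on day 7 (adjusted p = 0.00798), and Mybpc2 by 1.021 on day 3 (adjusted p = 0.0197) and 1.338 on day 7 (adjusted p = 0.00169). On day 3, Acta1 lost this call in 5 of 26 refits and Mybpc2 in 2, and on day 7 neither lost it in any. Heart and the other organs share no arrays in these differences, but each uses the same day 0 arrays on every day.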

How the results depend on the processing

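Over 21 refits of the heart comparisons, the day 1 rise of Myh7 (3.65 to 3.99) and the day 7 rises of Myh7 (2.92 to 3.32), Acta1 (1.51 to 1.90) and Mybpc2 (1.02 to 1.43) passed in every one. No called value changed sign. Other calls moved. Member calls between days 3 and 1 were 1 with no filter, 1 with trended and robust variances and 0 with only the groups compared, which also gave 1 on day 1 against day 0 and 0 between days 7 and 1. By probe set, day 1 gave 1 with no filter and 1 with only the groups compared, and day 3 gave 0 with no filter. Between heart and kidney, members differing on day 3 were 0 with 1 added before the log and 3 with 64 added, and on day 7 they were 1 with no filter, 1 after a second quantile normalization and 1 with 1 added. Between heart and brain on day 3, 1 added gave 1. The joint fit called 1 member in brain on day 3 (Mybpc3). Tnni1 minus Tnni3 passed with 64 added (0.1763, adjusted exact permutation p = 0.0273). The cause of these moves was not tested.

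Heart arrays of the same replicate number did not deviate together (2 of 18 correlations over 0.1), so they were taken to share only a number. A shared batch was not tested. In kidney, 8 of 12 same-number correlations were over 0.1 (-0.085 to 0.25, median 0.15), which is short of every pair, so there too the samples are taken to share only a number. With 2 arrays a day, in kidney and in brain, replicate 1 and replicate 2 give the same correlation between any 2 days. The counts for these organs therefore hold every value along with its copy. With the replicate block, member calls between days 3 and 1 were 1, and members differing between heart and kidney were 0 on day 3 and 1 on day 7, and other member counts stayed within 1.5 times. In brain, 2 of 6 same-number correlations were over 0.1 and the lowest was -0.65, and a crossed pairing, chosen after seeing the data, called 0 members on both days.

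With each array left out in turn, member calls in heart ranged from 1 to 3 on day 1, 0 to 3 on day 3, 3 to 3 on day 7, 0 to 3 between days 3 and 1 and 0 to 3 between days 7 and 1. By probe set they ranged from 1 to 4 on day 1 and 1 to 3 on day 3. Members differing between heart and kidney ranged from 0 to 3 on day 3 and 0 to 3 on day 7, and between heart and brain from 0 to 3 on day 3. The isoform differences ranged from 3.003 to 3.32 for Myh7 minus Myh6, 1.096 to 1.494 for Acta1 minus Actc1, 0.8561 to 0.9912 for Mybpc2 minus Mybpc3 and 0.1828 to 0.2625 for Tnni1 minus Tnni3, which passed without day 7 replicate 1 (0.2553, adjusted exact permutation p = 0.0182).

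Over all genes, heart calls against day 0 were 1889 on day 1 (679 with only the groups compared, 406 without day 1 replicate 1 and 3452 without day 1 replicate 3). They were 12 on day 3 (1 without day 0 replicate 2, 64 with only the groups compared, 124 in the joint fit and 273 without day 3 replicate 1) and 7 on day 7 (172 with only the groups compared).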
